A study of Mus musculus with 42 samples.

Results

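LEF1 and β-catenin binding were compared in T/BraKO cells, in which the T-box factor T (Brachyury, T/Bra-/-) is missing, by setting the 3 LEF1 ChIP-seq peak lists against the 3 β-catenin lists of the same cells and treatment. These 6 libraries were chosen by genotype and antibody, and are 6 of the 42 libraries of the series, of which 30 have a peak list. Mouse HM1 TetON embryonic stem cells and lines derived from them were cultured in N2/B27 medium with 10 ng/ml bFGF and 5 µM LGK974, an inhibitor of WNT secretion, with the GSK3 inhibitor CHIR99021 added for the last day, and chromatin was taken at 72 h, when the cells are caudal epiblast-like. CHIR99021 was present in all groups used here, controls included, so that every comparison is between cells with activated WNT signalling. WT and CdxKO (Cdx1, Cdx2 and Cdx4 mutant) cells of the same treatment, with 3 LEF1 and 3 β-catenin libraries each, and 3 SOX2 libraries of T/BraKO served only for comparison. The replicates are biological replicates from separate experiments. Whether the T/BraKO cells are a clone is not given in the sources used here, so that a property of the line and of the genotype cannot be told apart, and the loss of T itself cannot be checked from peak lists.

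β-catenin does not bind DNA by itself. When WNT signalling is active it escapes degradation, enters the nucleus and is held on chromatin by TCF/LEF proteins, of which LEF1 is one and TCF7, TCF7L1 and TCF7L2 are the others, and these proteins recognise the sequence CTTTGAA or CTTTGAT. In the caudal epiblast, WNT signalling induces T, the Cdx genes and a set of feedback genes such as Axin2, Sp5 and Nkd1. Comparing the lists sets apart sites called for both factors, for LEF1 alone or for β-catenin alone, within the limits of each antibody. A missing call does not show that a factor is absent, and these lists do not show what holds β-catenin at a site.

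Peaks were ranked within each list by the deposited −log10 q, and the best 1000, 5000 and 20000 were compared. A region is a stretch covered by overlapping peaks of the 6 lists, and a site of a factor is a region with a peak in 3 of 3 of its libraries. Among the best 20000 peaks the 6 lists made 92216 regions, of which 509 were LEF1 sites and 7151 were β-catenin sites. Sites of both factors numbered 470, which is 0.51% of all regions. Sites of β-catenin without a peak in any LEF1 list numbered 4293, or 4.66% of regions, and sites of LEF1 without a peak in any β-catenin list numbered 5, or 0.00542% of regions. Thus 92.3% of the LEF1 sites were β-catenin sites, whereas 6.57% of the β-catenin sites were LEF1 sites. These classes follow from ranks in the same lists and carry no test. The shares depended on the length of the lists. Among the best 1000 peaks, 73.2% of 183 LEF1 sites were β-catenin sites and 22.4% of 598 in reverse, and in the full lists 25.5% of 10877 and 24.0% of 11567. Without LEF1 replicate 1 the shared sites numbered 813, and without any 1 of the LEF1 libraries the sites of LEF1 alone numbered over 100, where a LEF1 site needed 2 of 2 libraries.

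The sequences below are those of the 2 or 3 regions with the best mean rank in each class, followed by 4 sites of named WNT targets, to show the letters under the summits. The 4 were chosen after their values were seen. Each is the plus strand of GRCm38.p6 (the RefSeq copy of mm10) from 50 bases before to 50 bases after the median summit, 5′ to 3′, and capitals mark CTTTGAA or CTTTGAT on either strand (TTCAAAG or ATCAAAG on the strand shown).

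The 3 best shared sites lay in an intron of Mapkap1 (chr2:34570536-34570636), in the region whose nearest coding start is that of the forkhead gene Foxb1 (chr9:69668843-69668943) and in an intron of Osbpl10 (chr9:115029603-115029703). The Foxb1 window held 2 matches and the others held none, although 1 match lay within 100 bp of the Mapkap1 summit.
Mapkap1: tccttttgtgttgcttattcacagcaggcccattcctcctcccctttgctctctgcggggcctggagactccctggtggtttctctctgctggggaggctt
Foxb1: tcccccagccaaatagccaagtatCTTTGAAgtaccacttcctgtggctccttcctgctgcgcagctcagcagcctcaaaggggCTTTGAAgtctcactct
Osbpl10: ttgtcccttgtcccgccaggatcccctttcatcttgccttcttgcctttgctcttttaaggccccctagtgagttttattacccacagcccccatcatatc

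The 2 best LEF1 sites without β-catenin lay in an intron shared by Schip1 and Iqschfp (chr3:68605389-68605489) and over a coding exon of the predicted gene Gm10717 (chr9:3025829-3025929). Neither window held a match, although 1 lay within 100 bp of the Schip1 summit. Of the bases shown, 74 and all, respectively, were masked as repeats in the reference.
Schip1: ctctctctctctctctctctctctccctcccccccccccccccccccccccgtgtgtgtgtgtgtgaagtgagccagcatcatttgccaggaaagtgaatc
Gm10717: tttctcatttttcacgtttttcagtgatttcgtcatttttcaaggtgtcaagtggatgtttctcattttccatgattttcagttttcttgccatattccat

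The 3 best β-catenin sites without LEF1 lay upstream of Ctdsp2 (chr10:126972109-126972209), in an intron of Slc5a10 upstream of Fam83g (chr11:61674778-61674878) and upstream of Shb (chr4:45654450-45654550). The Fam83g window held 2 matches, and the other two held none.
Ctdsp2: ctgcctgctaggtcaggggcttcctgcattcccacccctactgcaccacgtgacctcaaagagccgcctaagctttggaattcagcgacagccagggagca
Fam83g: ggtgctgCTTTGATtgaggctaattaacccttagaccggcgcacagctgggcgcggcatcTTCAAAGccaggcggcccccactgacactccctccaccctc
Shb: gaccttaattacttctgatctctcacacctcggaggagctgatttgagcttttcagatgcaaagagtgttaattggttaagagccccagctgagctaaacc

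Among WNT targets, an intron of Axin2 (chr11:108921197-108921297), a region upstream of Nodal (chr10:61406159-61406259) and a region upstream of Lef1 (chr3:131106047-131106147) were sites of both factors, and the T promoter (chr17:8434135-8434235) was a site of β-catenin without LEF1. The Axin2 and Nodal windows held 2 matches each, and the Lef1 and T windows held 1 each.
Axin2: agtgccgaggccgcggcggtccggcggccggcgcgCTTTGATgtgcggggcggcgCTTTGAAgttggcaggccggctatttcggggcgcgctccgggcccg
Nodal: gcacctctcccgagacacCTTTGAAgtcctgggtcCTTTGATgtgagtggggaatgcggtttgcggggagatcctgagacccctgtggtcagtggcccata
Lef1: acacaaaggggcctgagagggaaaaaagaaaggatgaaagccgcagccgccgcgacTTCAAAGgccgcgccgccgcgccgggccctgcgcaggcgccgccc
T: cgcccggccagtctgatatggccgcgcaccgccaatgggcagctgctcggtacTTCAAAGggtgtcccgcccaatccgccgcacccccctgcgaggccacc

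The lists differed in length and in the strength of their peaks. LEF1 lists held 924506, 858843 and 281971 peaks and β-catenin lists held 132907, 61413 and 37687, so that every LEF1 list was longer than every β-catenin list. Reads at the summit were recovered as whole numbers from the deposited fold enrichment and p of each peak, and all of the best 20000 peaks of each list gave a whole number within 0.001 of the deposited −log10 p. In the best 1000 peaks the median was 27, 28 and 25 reads in the LEF1 lists and 108, 88 and 113 in the β-catenin lists. At rank 1000 the fold enrichment over local background was 12.6, 12.6 and 10.6 for LEF1 and 28.3, 24.3 and 21.5 for β-catenin. At rank 20000 the order was the other way, with 8.37, 8.46 and 6.86 for LEF1 and 6.46, 5.66 and 5.16 for β-catenin. Over the best 20000 peaks the median was 17, 16 and 14 reads for LEF1 and 20, 17 and 19 for β-catenin. Library totals are not part of the peak lists, and the intervals given below cover counting error only.

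**Figure D1:**
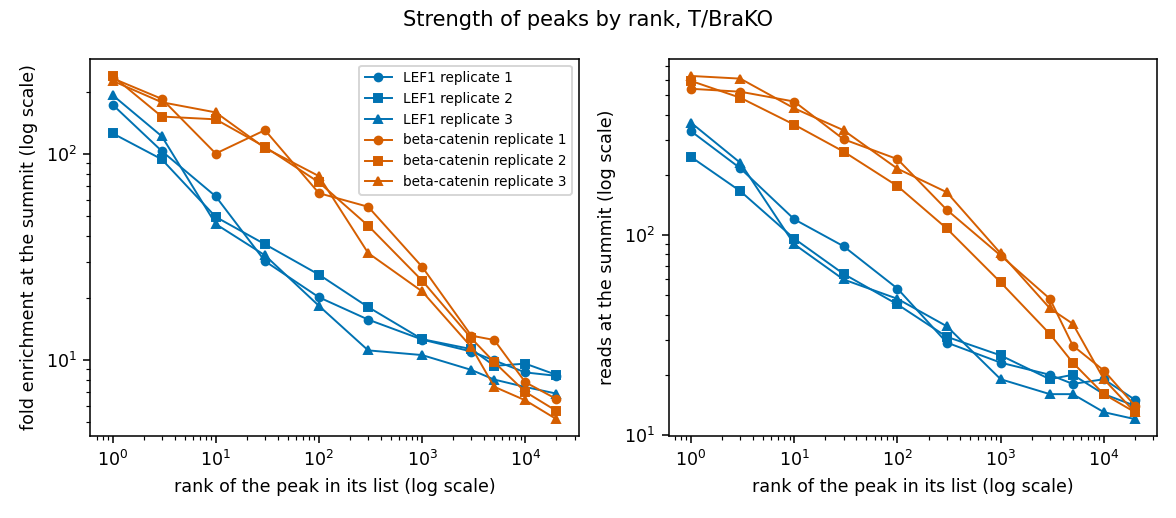
Fold enrichment (left) and reads (right) at the summit of the peak of a given rank in each T/BraKO library, both axes on log scales, 1 line per library. The β-catenin lists lie above the LEF1 lists at ranks 1 to 1000, and at rank 1000 LEF1 fold enrichment is 10.6 to 12.6 and β-catenin fold enrichment 21.5 to 28.3. At rank 20000 their fold enrichment is below that of LEF1.

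Overlap of a pair of lists was measured by the Jaccard index, the share of their merged regions that hold a peak of both. Among the best 20000, LEF1 libraries overlapped each other by 0.0229 on average over 3 pairs (range 0.0211 to 0.0263), and β-catenin libraries by 0.294 (0.267 to 0.319). LEF1 and β-catenin libraries overlapped by 0.0479 over 9 pairs (0.0370 to 0.0537). All 9 pairs of different factors therefore overlapped more than any pair of LEF1 libraries, and less than any pair of β-catenin libraries. The same held among the best 5000, with means of 0.0550, 0.520 and 0.1003 for LEF1 pairs, β-catenin pairs and pairs of different factors. Among the best 1000 the means were 0.160, 0.556 and 0.208, and 7 of the 9 pairs of different factors were above all LEF1 pairs. In the full lists the order turned round, with 0.0451 for LEF1 pairs and 0.0213 for pairs of different factors, none of which was above the LEF1 pairs. The full lists differ in length, and the index of a pair is limited by the shorter list. As shares, 9.87 to 31.6% of β-catenin peaks overlapped a full LEF1 list, and 1.24 to 4.76% of LEF1 peaks a full β-catenin list. Of LEF1 peaks, 4.39 to 14.3% overlapped another full LEF1 list. The part of list length was not tested. For a test among the best 20000, LEF1 and β-catenin pairs were pooled as pairs within factors, although LEF1 pairs alone lay below pairs of different factors. The mean overlap within factors exceeded that between factors by 0.111 (one-sided exact permutation test over 10 divisions of the 6 libraries, p = 0.1, the smallest this design allows). Without β-catenin replicate 1, 2 or 3 the difference was 0.0368, 0.0479 and 0.0437, and exact p = 0.4 each.

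**Figure D2:**
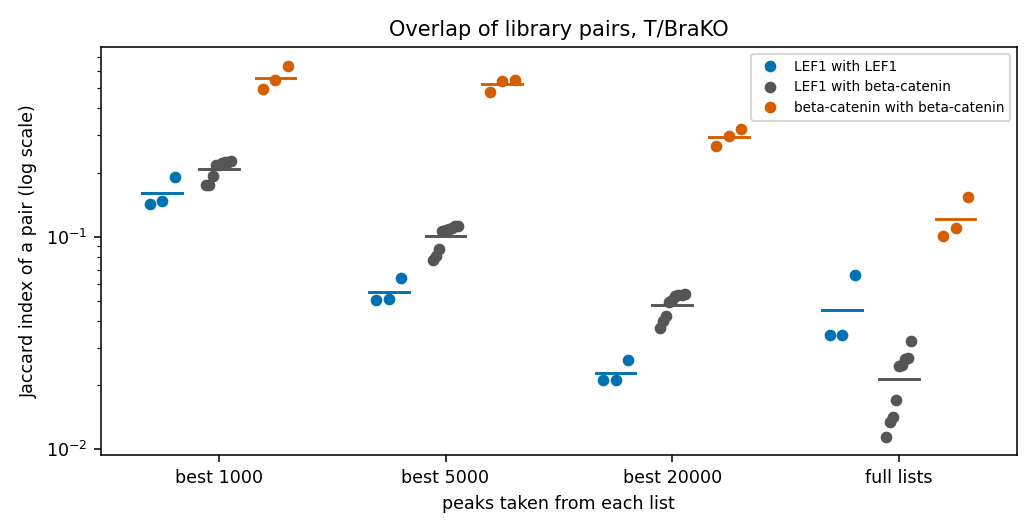
Jaccard index (log scale) of each pair of T/BraKO libraries for the best 1000, 5000 and 20000 peaks and the full lists, with 1 point per pair and a bar at the mean. At 20000 the 9 pairs of different factors (0.0370 to 0.0537) lie above the 3 LEF1 pairs (0.0211 to 0.0263). In the full lists, which differ in length, they lie below them.

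The overlap lay in the strongest peaks. Of β-catenin peaks ranked 1 to 1000, 58.6% overlapped a peak of a LEF1 best 20000 list (mean over 9 pairs of libraries, range 51.8 to 62.9%), against 1.38% when the peaks were moved by 10000 bp. For ranks 1001 to 5000 the share was 17.4% and for ranks 5001 to 20000 it was 3.69%. In the other direction, 61.7% of LEF1 peaks ranked 1 to 1000 overlapped a β-catenin list (50.2 to 68.9%), and 41.9% overlapped another LEF1 list (37.3 to 48.9%). The β-catenin peaks ranked 1 to 1000 were found in another β-catenin list in 99.8% of cases. At ranks 1001 to 5000, 5.75% of LEF1 peaks and 89.3% of β-catenin peaks recurred in another list of their own factor. At ranks 5001 to 20000 these shares were 1.66% and 30.7%, against 0.44% and 1.03% after the move.

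The 7151 β-catenin sites were put in order of mean β-catenin rank to describe where LEF1 was called. Of the first 100, 89 were sites of LEF1 and 1 had no LEF1 peak among the best 20000. The share of LEF1 sites was 41.5% for the next 400, 18.8% for the following 500, 5.5% for the 1000 after those, 2.05% for the 2000 after those and 0.793% for the last 3151. The share with no LEF1 peak went from 1% to 79.5% over the same order. The TCF/LEF motif within 100 bp of the summit went from 63% in the first 100 to 40.1% in the last group. LEF1 peaks had few reads, and a site without a LEF1 call was not shown to lack LEF1. In the full LEF1 lists, 703 of the 4293 β-catenin sites without LEF1 had no peak in any library, 1593 had a peak in 1, 1411 in 2 and 586 in 3. Their median rank there was 239015, 201591 and 113266 in the 3 LEF1 libraries. The full LEF1 lists cover 143, 130 and 44.7 Mb, and β-catenin peaks ranked 5001 to 20000 met them in 26.6% of cases at their own place and in 11.8% after the move of 10000 bp.

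**Figure D3:**
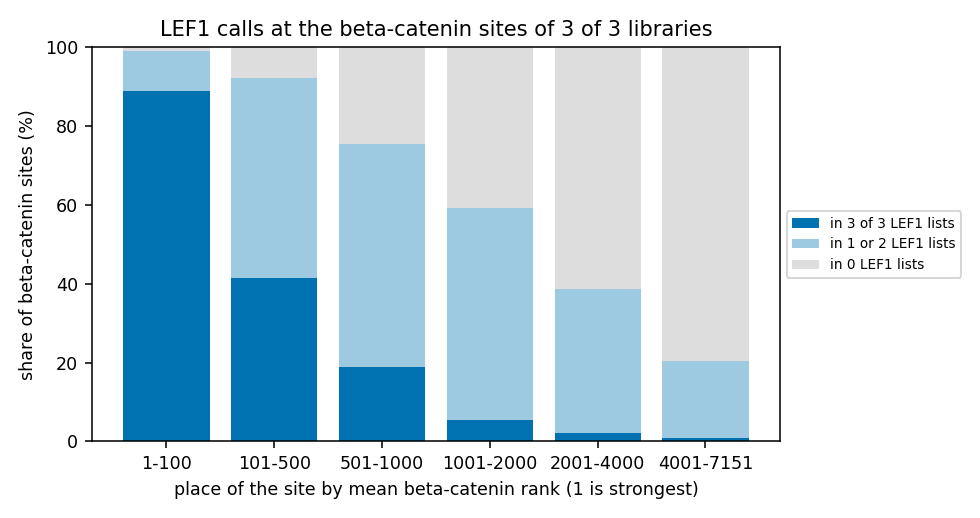
Share of β-catenin sites (peaks in 3 of 3 libraries) with a LEF1 peak in 3, in 1 or 2, or in 0 LEF1 libraries, by place in the order of mean β-catenin rank, best 20000 peaks. LEF1 was called in 3 of 3 libraries at 89% of the first 100 sites and at 0.793% of sites 4001 to 7151.

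At most of the 470 shared sites the summits of both factors lay close together, and at 16 sites they lay over 200 bp apart. The LEF1 and β-catenin summits, each the median of 3 libraries, lay 16 bp apart (median), 417 sites had them within 50 bp, and the signed difference had a median of 0 bp. Summits of LEF1 libraries at these sites differed from each other by 31 bp (median) and those of β-catenin libraries by 15 bp. A TCF/LEF motif was within 25 bp of the LEF1 summit at 221 sites, of the β-catenin summit at 208 sites and of the moved position at 11 sites. Over all summits within 500 bp of each other in 2 lists, the median distance was larger between factors than within factors by 0.722 bp at 20000 peaks (one-sided exact permutation test, p = 0.2), by 1.75 bp at 5000 and by 3.86 bp at 1000 (p = 0.1 each). The sign turned without any 1 of the β-catenin libraries (−3 bp without replicate 1, −2.42 bp without 2 and −2.67 bp without 3). At 20000 peaks, LEF1 libraries lay 44 bp from each other, 37.9 bp from β-catenin libraries, and β-catenin libraries 30.3 bp from each other (means of medians over pairs). In the same order, a mean of 1036, 1971 and 9403 summits lay within 500 bp, against 211, 242 and 375 after a move of 10000 bp. The part of such unrelated summits in the distances was not tested.

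The best shared site was the one in Mapkap1 (chr2:34569956-34571463), a gene for a subunit of an mTOR kinase complex. Its ranks were 12, 4 and 6 in the LEF1 libraries and 2, 1 and 1 in the β-catenin libraries, with 149, 146 and 102 against 624, 591 and 626 reads at the summit. The Foxb1 region (chr9:69667954-69671755, 92047 bp from the start site) followed, with LEF1 ranks of 11, 5 and 4 and β-catenin ranks of 4, 2 and 3. The Osbpl10 site had LEF1 ranks of 18, 6 and 12 and β-catenin ranks of 14, 13 and 12. The sites nearest to 2510009E07Rik (LEF1 ranks 33, 16 and 31, β-catenin ranks 1, 3 and 2) and Cenpx (20, 29 and 19 against 7, 11 and 8) completed the first 5. At all 5, every LEF1 library had fewer reads at the summit than every β-catenin library.

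The first 3 sites by LEF1 rank differed from these. The 3 sites with the best mean LEF1 rank were nearest to Fam227b (LEF1 ranks 1, 1 and 2), Ybx3 (2, 2 and 3) and Acacb (3, 3 and 5), and ranked 22, 193 and 142, 32, 217 and 201, and 132, 431 and 338 for β-catenin. These 3 regions were 230, 339 and 236 bp wide, held no TCF/LEF motif within 100 bp, and had 59, 73 and 71 repeat-masked bases in the window of 50 bases on either side of the summit. They also had high ranks in the SOX2 lists of T/BraKO, with SOX2 ranks of 1, 5 and 81, 2, 12 and 120, and 6, 45 and 184. Peak lists alone cannot show whether these peaks are binding. Of the 20 shared sites with the best mean LEF1 rank, 10 ranked higher in every LEF1 library than in any β-catenin library, 9 had no TCF/LEF motif and 8 had over 50 repeat-masked bases. The site at the start of Tcf7l1, which encodes a TCF/LEF protein that often represses, belonged to these 10, with LEF1 ranks of 14, 8 and 1 and β-catenin ranks of 2060, 6514 and 4263, and had no masked base. Over all 470 shared sites, 56 ranked higher in every LEF1 library, 88 ranked higher in every β-catenin library and 326 were mixed. Over 50 masked bases were found at 30.4% of the 56 (95% Wilson interval 19.9 to 43.3%), at 9.51% of the mixed (6.78 to 13.2%) and at 3.41% of the 88 (1.17 to 9.55%). The part of repeats in the LEF1 ranks was not tested beyond leaving out peaks whose summit base was masked, a choice made after these values were seen. This left 334 shared sites, 4 of LEF1 alone and 3288 of β-catenin alone, and pairs of different factors (mean 0.0405) still overlapped more than LEF1 pairs (0.0191).

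Features that did not define the classes were then compared. The TCF/LEF motif was within 100 bp of the summit at 70.4% of shared sites (331 of 470, 95% Wilson interval 66.1 to 74.4%), at 56.9% of β-catenin sites with 1 or 2 LEF1 libraries (54.9 to 58.8%, 2388 sites) and at 37.6% of β-catenin sites without LEF1 (36.1 to 39.0%), against 7.79 to 9.15% in windows of the same length moved by 10000 bp. A SOX2 region of T/BraKO, called in at least 2 of 3 libraries, overlapped 76.2%, 53.7% and 42.9% of the same classes. The regions of these classes had a median width of 928.5, 624 and 468 bp, and over the order of β-catenin sites by rank the SOX2 share went from 96% of the first 100 to 34.5% of the last 3151, and the part of width and of β-catenin rank in the difference between classes was not tested. The SOX motif (CCATTGT or CCTTTGT) was at 14.5%, 16.9% and 15.5%, against 6.81 to 7.29% in moved windows. The CDX motif (CAATAAA or CCATAAA, and also TAATAAA or TCATAAA) was at 10.2%, 12.2% and 15.6%, the last near the 14.9 to 16.6% of moved windows. The T-box motif AGGTGTGA was at 1.06%, 0.879% and 1.37%, against 0.851 to 1.34% in moved windows. Sites within 1000 bp of a transcription start were 12.1%, 12.2% and 14.0% of the classes. Sites of a class lie in one set of libraries, so that these intervals compare sites and not cultures.

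LEF1 libraries of the other genotypes, which had no part in choosing the classes, were compared at the same sites. At least 2 of 3 WT LEF1 libraries had a peak among their best 20000 at 79.4% of the shared T/BraKO sites (75.5 to 82.8%), at 26.0% of the sites with 1 or 2 LEF1 libraries and at 6.34% of the β-catenin sites without LEF1 (5.65 to 7.10%). The shares in CdxKO were 88.3%, 37.1% and 10.1%. For β-catenin, at least 2 of 3 WT libraries had a peak at 98.9%, 88.3% and 67.3% of the 3 classes.

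**Figure D4:**
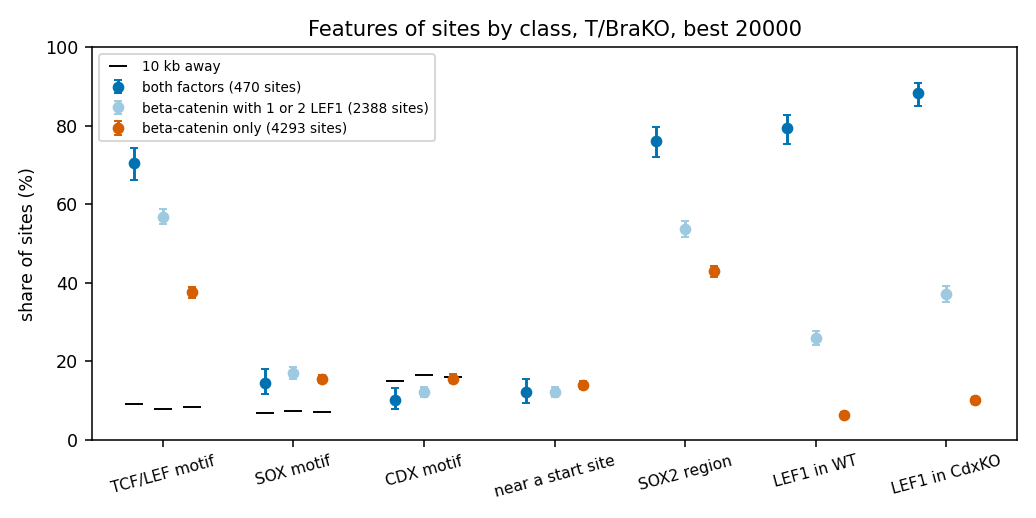
Share of sites with each feature in the shared class, the β-catenin class with 1 or 2 LEF1 libraries and the β-catenin class without LEF1, with 95% Wilson intervals (counting error over sites), and black dashes for motif shares 10000 bp away. The TCF/LEF motif goes from 70.4% to 37.6% and LEF1 in WT (at least 2 of 3 libraries) from 79.4% to 6.34%, while the SOX motif stays between 14.5% and 16.9%.

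Over whole lists of 20000, LEF1 and β-catenin libraries were compared as 3 against 3, with the exact two-sided permutation test and Benjamini-Hochberg adjustment over 11 properties. Few LEF1 peaks beyond rank 1000 recurred in another LEF1 list, so that the values describe lists and not reproduced LEF1 sites. The TCF/LEF motif share was 15.3%, 17.8% and 16.9% in the LEF1 libraries and 31.6%, 28.1% and 36.6% in the β-catenin libraries, groups that did not overlap (means 16.7 ± 1.30 and 32.1 ± 4.30%, SD, n = 3, exact permutation p = 0.1, adjusted p = 0.157). Among ranks 1 to 1000 the shares were 39.1%, 52.9% and 50.5% against 55%, 54.1% and 64.4%. SOX2 regions overlapped 4.65%, 6.24% and 6.34% of LEF1 peaks and 26.7%, 25.4% and 23.1% of β-catenin peaks, again without overlap of the groups. Promoter peaks were 5.72%, 7.21% and 7.73% of LEF1 and 15.8%, 14.8% and 15.6% of β-catenin lists, a difference that turned round among the best 1000 (12.3% against 10.1%, groups overlapping). The SOX motif (8.60 ± 0.118 against 12.9 ± 0.640%), GC content (45.6 ± 0.187 against 50.1 ± 0.180%), repeat content (25.1 ± 0.516 against 19.4 ± 0.592%) and number of peaks also separated the groups, each at exact permutation p = 0.1 and adjusted p = 0.157 with n = 3. The T-box motif share (0.937 against 1.16%, exact p = 0.2), the CDX motif share (14.5 against 14.2%, p = 0.7), the median fold enrichment (8.55 against 7.05, p = 0.2) and the median width (192 against 229 bp, p = 0.3) did not.

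The β-catenin sites without LEF1 held the T promoter. T encodes the T-box factor that these cells lack. The region 238 bp upstream of its start site (chr17:8433412-8434783) ranked 150, 727 and 87 in the β-catenin libraries, with fold enrichments of 75.8, 26.5 and 83.6. In the LEF1 libraries it ranked 56315, was not called in replicate 2, and ranked 64798, with fold enrichments of 7.32 and 5.81 in replicates 1 and 3. A second β-catenin site, 25333 bp upstream of T in an intron of T2, ranked 644, 594 and 531 for β-catenin and 450, 67408 and 129555 for LEF1, so that LEF1 replicate 1 was high and the others low. At the next, 19842 bp upstream in the same gene, LEF1 ranked 624, 2983 and 182302 and β-catenin 438, 1463 and 269. At the last, 4316 bp upstream, β-catenin ranked 9814, 4593 and 6460 and no LEF1 peak was among the best 20000. The best LEF1 peak nearest to the start of T lay at −25307, −19866 and −1624 bp from it in replicates 1, 2 and 3 (ranks 450, 2983 and 1408). T was therefore called as a gene by all 6 libraries, but no β-catenin site of T was called by all 3 LEF1 libraries. With peaks within 10000 bp of the gene body in place of the nearest start, 1 LEF1 library and 3 β-catenin libraries called T. The T promoter was a site of β-catenin in WT and CdxKO cells too (3 of 3 libraries each), and had a LEF1 peak among the best 20000 in 1 of 3 libraries of each.

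Other members of this class were the 5 with the best mean rank, nearest to Ctdsp2 (β-catenin ranks 53, 50 and 85), Fam83g (106, 175 and 158), Shb (180, 240 and 172), Chrna9 (80, 379 and 162) and Slc52a3 (301, 124 and 244). The Ctdsp2 site had 325, 252 and 304 β-catenin reads at its summit and LEF1 ranks of 244223, 343127 and 275122 with fold enrichments of 4.00, 4.46 and 2.53. The Chrna9 site, 278 bp upstream of the start of a nicotinic receptor subunit gene, had no LEF1 peak in any full list. A site 1930 bp upstream of Nodal, which encodes the TGFβ-family ligand of the primitive streak, ranked 227, 275 and 326 for β-catenin and belonged to this class, whereas the site 11763 bp upstream of Nodal was shared (LEF1 ranks 354, 315 and 2058, β-catenin ranks 226, 342 and 219).

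The 5 LEF1 sites without β-catenin had few reads, a low fold enrichment or masked bases. The Schip1 site ranked 1618, 715 and 878 with fold enrichments of 3.41, 4.18 and 3.43 over 91, 88 and 79 reads, and the Gm10717 site ranked 6906, 1421 and 929 with 1.82, 2.28 and 2.02 over 245, 194 and 214 reads. Both thus combined many reads with a high local background. The site nearest to A130010J15Rik ranked 4898, 18269 and 8498 on 18, 16 and 14 reads. No β-catenin library had a peak at the Schip1 and Gm10717 sites in its full list. None of the 5 overlapped a SOX2 region.

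Of the WNT feedback genes named, Sp5, Axin2, Lef1 and Nkd1 had shared sites beside β-catenin sites called by fewer than 3 LEF1 libraries. Sp5, a transcriptional target and modulator of WNT signalling, had 3 shared sites of its 6 β-catenin sites. The strongest lay at its start (β-catenin ranks 3, 4 and 4, LEF1 ranks 4414, 271 and 223), and the site 31051 bp upstream had LEF1 ranks of 104, 272 and 51 and β-catenin ranks of 117, 73 and 48. Axin2, a scaffold of the β-catenin destruction complex, had 2 shared sites of 8, the strongest with LEF1 ranks of 15385, 567 and 187 and β-catenin ranks of 288, 79 and 109. Lef1 had 2 of 7, 4374 bp upstream (LEF1 ranks 11767, 488 and 2289, β-catenin ranks 304, 205 and 106) and 25661 bp upstream (3012, 423 and 2046 against 191, 227 and 581). Nkd1, an inhibitor of the WNT pathway, had 2 of 9, although its strongest β-catenin site missed LEF1 replicate 3 (765, 151 and 24616 against 286, 300 and 292). LEF1 replicate 1 was the lowest of the LEF1 libraries at the strongest sites of Sp5, Axin2 and Lef1. Tcf7 and Rnf43, which encode a TCF/LEF protein and a ubiquitin ligase that removes WNT receptors, had no shared site. The strongest Tcf7 site, 368 bp upstream of the start, ranked 2342, 1325 and 628 for β-catenin and 693066, 197293 and 7735 for LEF1, and the strongest Rnf43 site ranked 5135, 6975 and 2877 for β-catenin and was called by LEF1 in replicate 2 alone (rank 4912).

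The caudal genes fell on both sides. Cdx1 and Cdx2, which encode homeodomain factors that pattern the posterior body, had shared sites. At the Cdx1 promoter β-catenin ranked 17, 12 and 11 and LEF1 14840, 173 and 122, and in the Cdx2 intron β-catenin ranked 116, 154 and 263 and LEF1 273, 324 and 1439. For Cdx4 the 1 β-catenin site (5110, 2541 and 3724) had LEF1 ranks of 690004, 44053 and 130414. Fgf8, an FGF ligand of the caudal epiblast, had 1 β-catenin site (5347, 13203 and 1110) with no LEF1 peak among the best 20000 in T/BraKO. There, 3 of 3 WT and 2 of 3 CdxKO LEF1 libraries had a peak. Of all 4293 β-catenin sites without LEF1 in T/BraKO, 70 (1.63%) had a peak in 3 of 3 WT LEF1 libraries. A difference between genotypes at Fgf8 was not tested. Wnt3a had 1 site of low rank (11139, 10709 and 6059) without LEF1. Wnt8a, a WNT ligand, had 3 β-catenin sites, the strongest of which ranked 188, 231 and 297 for β-catenin and 414154, 2460 and 40029 for LEF1. Tbx6 and Msgn1, transcription factors of the paraxial mesoderm, had no site of β-catenin.

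Pou5f1 and Sox2 had no shared site. Pou5f1, which encodes OCT4, had its strongest site 844 bp upstream (β-catenin ranks 525, 518 and 793, LEF1 ranks 195, 86499 and 2231), and LEF1 replicate 2 kept it out of the shared class. Sox2 had 7 β-catenin sites. The strongest, 110799 bp from the start, ranked 3272, 3040 and 2536 for β-catenin and 27570, 32749 and no call for LEF1.

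**Figure D5:**
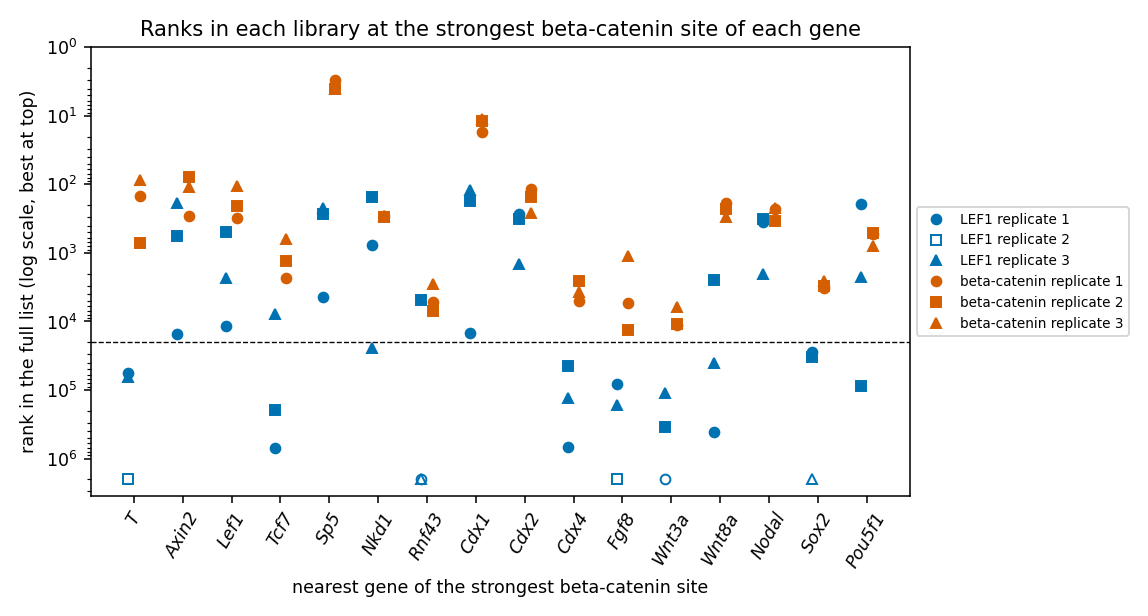
Rank in the full list of each T/BraKO library (log scale, best at the top) at the strongest β-catenin site of each named gene, with open symbols at the bottom for no call and a dashed line at rank 20000. At Sp5, Axin2, Lef1, Cdx1, Cdx2 and Nodal all 6 libraries lie above the line, and at T, Cdx4, Fgf8, Wnt3a and Sox2 all LEF1 libraries lie below it or have no call.

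Calling genes instead of sites gave a larger overlap. Each summit was given to the nearest coding start site, and 2860 of 21911 coding genes (13.1%) were called by all 6 best 20000 lists, 309 (1.41%) by 3 of 3 LEF1 and 0 of 3 β-catenin libraries and 376 (1.72%) by the reverse. Only 434 of the 2860 genes (15.2%) had a region shared by all 6 lists, and the other 2426 were called at separate places in at least 1 library. Among the best 1000, 155 genes (0.707%) were called by all 6 lists, 26 (0.119%) by LEF1 alone and 117 (0.534%) by β-catenin alone. With peaks within 10000 bp of the gene body in place of the nearest start, 1698 genes were called by all 6 lists, 335 by LEF1 alone and 524 by β-catenin alone.

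Of the 23 WNT feedback genes, 13 were called by all 6 best 20000 lists, 0 by LEF1 alone and 1 (Dkk4, a secreted WNT inhibitor) by β-catenin alone, and 9 of the 13 had a shared region: Axin2, Lef1, Tcf7l1, Tcf7l2, Sp5, Nkd1, Znrf3, Ccnd1 and Myc. Of the 28 caudal epiblast and mesoderm genes, 11 were called by all 6 lists, 5 of them at a shared region (Cdx1, Cdx2, Hes7, Evx1 and Rspo3), and Wnt3a, Cdx4 and Mesp2 by β-catenin alone. Of the 39 Hox genes, 5 were called by all 6 lists (12.8%, against 13.1% of all coding genes), Hoxb4 and Hoxd1 among them at a shared region, and Hoxa2, Hoxa5, Hoxa7 and Hoxd9 by β-catenin alone. Of the 21 pluripotency and anterior neural genes, 8 were called by all 6 lists and 2 of these, Klf5 and Tfcp2l1, at a shared region. Of the 8 NODAL genes, 3 were called by all 6 lists, 1 (Nodal) at a shared region, and Lefty1 and Foxh1 by β-catenin alone. Of 20 genes of other tissues 1 (Ins1, with no shared region) and of 12 housekeeping genes 0 were called by all 6 lists. No gene of these lists was called by LEF1 alone at 20000, while Pax6 was among the best 5000 and Tcf7l1 among the best 1000. With the extended gene body, the genes called by all 6 lists changed from 5 to 14 of the 39 Hox genes. They changed from 11 to 5 for the caudal list and from 8 to 3 for the pluripotency and anterior neural list. Over all 21911 coding genes they fell from 2860 to 1698. Those called by β-catenin alone changed from 4 to 0, from 3 to 4 and from 0 to 5 in the same order. Over all coding genes these rose from 376 to 524. A peak can lie within 10000 bp of several genes, and the part of this in the Hox change was not tested.

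The overlap of LEF1 with β-catenin was set beside that in the other genotypes. The mean Jaccard index over 9 pairs was 0.0479 ± 0.00639 (SD over pairs, which share libraries) in T/BraKO, 0.0501 ± 0.00851 in WT and 0.0657 ± 0.00177 in CdxKO. The difference of T/BraKO from WT was −0.00222 (two-sided exact permutation test over 400 assignments, p = 0.795, adjusted p = 0.795), and that from CdxKO was −0.0178 (p = 0.09, adjusted p = 0.18). Against CdxKO it was −0.0506 among the best 5000 (exact p = 0.01, adjusted p = 0.02) and −0.0799 among the best 1000 (exact p = 0.035, adjusted p = 0.07), so that after adjustment over both comparisons it passed 0.05 among the best 5000 and at neither of the other lengths. Shared sites numbered 470 in T/BraKO, 579 in WT and 892 in CdxKO, and held 92.3%, 90.2% and 88.4% of the LEF1 sites. β-catenin sites without LEF1 numbered 4293, 2521 and 2287, of 7151, 5212 and 5482 β-catenin sites. All regions numbered 92216, 96967 and 94142. β-catenin libraries overlapped each other by 0.294 in T/BraKO, 0.203 in WT and 0.215 in CdxKO, and the part of this in the site counts was not tested. LEF1 libraries overlapped each other by 0.0229 in T/BraKO, 0.0270 in WT and 0.0407 in CdxKO, values that moved with the overlap between factors, and their part in the difference was not tested.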

How the data were processed

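Chromatin of CHIR99021-treated cells was fixed, immunoprecipitated for LEF1 or β-catenin (and SOX2) and sequenced. The authors trimmed reads, aligned them to mm10 with BWA in the nf-core/chipseq workflow and called peaks per library with MACS2 at its default q limit. Which of the 12 input libraries served as control is not given in the sources used here, and the inputs and 9 SOX2 lists of other groups were not analysed here. The deposited values used were the fold enrichment (a linear ratio at the summit), −log10 p, −log10 q and summit position. The deposited score restates −log10 q as a whole number and was not used. The order of peaks was that of −log10 q, with ties broken by the p and then the fold, which lets lists of unequal length be compared. Peak ends lay within the chromosome lengths of GRCm38.p6. Regions were merged at 1 bp overlap. Genes were GENCODE M21 basic annotation. Named genes were T, 17 WNT, caudal and pluripotency genes, and the nearest genes of the 5 best regions of each class. Some of these items are not reported here. The members and lists were chosen with earlier results of these data known. Libraries, not peaks, were the units of each exact permutation test, and 3 against 3 cannot go below p = 0.1. Deviations of same-numbered LEF1 and β-catenin libraries had correlations of 0.00406, 0.00486 and 0.00298. Those of differently numbered libraries ran from −0.00319 to −0.000828, so that a pairing by number was not settled. Alternatives were list length, ranking by fold enrichment, summit and motif windows, gene body assignment and each library left out. Code was tested on simulated data and used Python 3.11.15, numpy 2.4.6, pandas 2.3.3, scipy 1.17.1 and pysam 0.24.0.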

Additional observations from a re-analysis of the deposited data

How the results depend on the processing

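Of 81 alternatives to the 7 tests across libraries, 73 kept the direction and side of the threshold, 6 reversed and 2 passed it before adjustment. Only the differences from WT and CdxKO could change side, because the other exact permutation tests cannot go below p = 0.1. For those others, being kept refers to direction alone. The overlap within factors was counted as kept where its exact permutation p rose to 0.4 without a β-catenin library. Against 470 shared sites, 5 of LEF1 alone and 4293 of β-catenin alone, the counts were 134, 19 and 169 among the best 1000, 296, 8 and 1477 among the best 5000, 2779, 6660 and 1805 in the full lists, and 1310, 308 and 9070 with at least 2 of 3 libraries. Ranked by fold enrichment, LEF1 alone had 1 site. With each library left out in turn, shared sites ran from 469 to 813 (813 without LEF1 replicate 1), LEF1 alone from 6 to 112 (over 100 without any 1 LEF1 library, 17 without β-catenin replicate 1) and β-catenin alone from 4727 to 6404, where a class needed 2 of 2 libraries by construction. LEF1 sites that were shared made 73.2% among the best 1000 and 25.5% in the full lists, against 92.3%. The promoter difference became 2.27 percentage points (exact permutation p = 0.4) among the best 1000. The difference from CdxKO was −0.0506 among the best 5000 and −0.0799 among the best 1000 (exact p = 0.01 and 0.035, adjusted over both comparisons 0.02 and 0.07). The difference from WT turned to 0.00186 without LEF1 replicate 1 and to 0.000249 without repeat-masked summits, and ran from −0.00429 to 0.00186 over left-out libraries. The summit distance difference turned to −3, −2.42 and −2.67 bp without β-catenin replicates 1, 2 and 3 and reached 4.67 bp without LEF1 replicate 1 or 3. Genes called by all 6 lists numbered 1698 with extended gene bodies against 2860. The causes were not tested.

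The other ranges over left-out libraries were −17.5 to −13.2 points for the TCF/LEF motif, −8.90 to −7.90 for promoters, −20.3 to −18.5 for SOX2 regions, 0.0368 to 0.180 for overlap within factors and −0.0198 to −0.0137 for the difference from CdxKO. Whether replicate numbers pair the libraries was not settled. With them as a replicate block the differences of −15.5, −8.48 and −19.3 points in TCF/LEF, promoter and SOX2 shares had exact p = 0.25, the smallest that 8 sign changes allow. Few reads per LEF1 peak (14 to 17 at the median of the best 20000) limit what a missing LEF1 call can show.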
